A study of Tribolium castaneum with 9 samples.

Results

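The genes described here are the muscle genes of the red flour beetle, Tribolium castaneum: 58 genes out of the 5467 in the deposited table. They were found by the text of the description the submitters attached to each gene. A gene was taken when its first title named myosin, paramyosin, tropomyosin, troponin, titin, twitchin, projectin, muscle, sarcalumenin, calsequestrin, ryanodine, nebulin, obscurin, myofilin, sarcoplasmic, calponin or alpha-actinin. Of the genes so found, 4 (flightin, an actin and troponin C genes) were set aside by identifier, and their levels are given only in 1 place below. No expression value entered the text match. The table as a whole holds genes that the authors had selected on these same libraries, so counts of changed genes are not independent evidence.

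RNA came from adult beetles of a susceptible phenotype, and there were 3 groups of 3 libraries. The control group was the whole body of beetles not exposed to carbonyl sulfide (COS), a fumigant gas used on stored grain. The other groups were the Malpighian tubules (the excretory organ of insects) and the fat body (the organ of storage and intermediary metabolism) of beetles exposed to COS, with no dose or time in the labels used here. Tissue and treatment thus changed together against the control, and their effects cannot be told apart. Both organs came from beetles exposed to COS. The titles of the fat body samples hold a number that those of the tubule samples lack, and its meaning is not given. Whether both organs had the same exposure is therefore not known, and fat body and tubules may differ in exposure as well as in tissue. Whether the libraries of a group came from different animals or cultures is not in the labels. The p-values therefore rest on the spread among these libraries, and that spread may be technical.

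A sarcomere is the contractile unit of striated muscle, in which thick filaments of myosin slide along thin filaments of actin. Calcium released from the sarcoplasmic reticulum by the ryanodine receptor binds troponin C. The troponin complex then shifts tropomyosin on the thin filament, and myosin can bind actin. Giant proteins of the titin family tie thick filaments to the Z-disc, the plate where thin filaments are anchored, and insect thick filaments hold a core of paramyosin. In the insect abdomen, muscle of the body wall and of the gut lies close to fat body and tubules, which are themselves made mostly of other cell types.

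The deposited names were read against the other annotation of each gene (protein domains, KEGG orthology and RefSeq symbols). By that reading, 27 of the 58 genes were taken to encode parts of the sarcomere or of its calcium handling. They are 5 of the thick filament, 9 of the thin filament, 7 elastic, Z-disc or M-line proteins and 6 proteins of calcium handling. For some, such as LOC662923, LOC663846, LOC659263 and LOC655895, the only other annotation was an EF-hand domain. The muscle role of those genes rests on the deposited name. A further 9 encode myosins that work outside the sarcomere and 3 encode regulators named for muscle. The remaining 19 bear a muscle name that the other annotation did not back: 5 carried annotation of a different kind, 1 carried only a domain of unknown function and 13 carried neither a domain nor a KEGG orthology. These classes were drawn up after counts had been seen.

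Library totals ran from 13435869 to 19866421 reads, and the listed genes held 45.7% to 67.3% of them. The labelled tissues were checked against their markers. Vitellogenin, the yolk protein precursor made by fat body and the most abundant of 18 fat body markers, averaged 540 CPM in control, 405 in tubules and 8602 in fat body. Multidrug resistance-associated protein 4 (LOC660659), the most abundant of 70 tubule markers, averaged 163 CPM in control, 3338 in tubules and 30.3 in fat body. The 70 tubule markers together held 3295 to 3643 CPM in control libraries, 13731 to 16765 CPM in tubule libraries and 3823 to 4074 CPM in fat body libraries. For 18 fat body markers the sums were 8227 to 10091, 2043 to 2693 and 17609 to 27218 CPM in the same order. That sum was carried by a few abundant genes, since 8 of the 18 were higher and 10 lower in fat body than in control (median log2 fold change -2.03), and 7 were higher and 5 lower in fat body than in tubules (median -0.04). Of the 70 tubule markers, 40 were higher and 12 lower in tubules than in control. Control replicate 3 and fat body replicate 1 stood apart from the other libraries of their groups in genes of testis and sperm, and values without 1 or both are given for the muscle-named genes that shared the pattern. CPM here are read counts scaled to the library total with TMM factors. A gene passed when the p of edgeR's quasi-likelihood test, adjusted by Benjamini-Hochberg across 5358 genes, was under 0.05. All 58 muscle-named genes were among those tested, and ± after a log2 fold change is its standard error.

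Genes of the sarcomere and its calcium handling were low in tubules and high in fat body. Against the control, 26 of the 27 were lower in tubules, 0 were higher and 1 did not pass, with a median log2 fold change of -2.52. The count higher in tubules was also 0 at an unadjusted p under 0.05 and with DESeq2. In fat body 23 were higher than in the control, 2 were lower and 2 did not pass, with a median of 1.44. Between the treated tissues 25 were higher in fat body, 1 was lower and 1 did not pass, with a median of 3.71. The 4 genes set aside are not in these counts. Among them LOC659195 alone had a higher mean in fat body than in control. In bulk RNA, fewer cells of a type and less RNA per cell cannot be told apart.

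These counts stand against a table in which most genes passed. In tubules 32.6% of the tested genes were higher than in the control and 30.2% were lower (62.8% in either direction), and the 3 libraries of each group did not overlap for 72.4%. In fat body 32.2% were higher than in the control and 36.9% lower (69.1% in either direction), without overlap for 78.0%. Between fat body and tubules 38.8% were higher in fat body and 41% lower (79.8% in either direction), without overlap for 80.3%. The median over all tested genes was -0.12, -0.22 and -0.24 in these 3 comparisons. For each comparison the groups did not overlap for 26 of the 27 sarcomere and calcium genes.

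The remaining 31 genes lay nearer to that background. Against the control, 11 were higher and 9 lower in tubules and 9 were higher and 11 lower in fat body, and 9 were higher and 13 lower in fat body than in tubules. Their median log2 fold changes were -0.36, -0.66 and -0.38. Over all 58 genes, 11 were higher, 35 were lower and 12 did not pass in tubules against control (median -1.64). The split was 32 higher, 13 lower and 13 not passed in fat body against control (median 0.70), and 34, 14 and 10 in fat body against tubules (median 1.79). The groups did not overlap for 48, 49 and 46 of the 58 genes.

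As a share of all reads, the 58 genes took 2.86%, 2.90% and 2.78% in control, 0.801%, 0.757% and 0.717% in tubules and 6.21%, 5.64% and 6.47% in fat body. The 27 sarcomere and calcium genes alone averaged 2.48% ± 0.132 (SD, n = 3) in control, 0.377% ± 0.0213 in tubules and 5.87% ± 0.402 in fat body. Their share was thus 2.36-fold higher in fat body than in control, 6.59-fold higher in control than in tubules and 15.6-fold higher in fat body than in tubules. The share of the other 31 genes moved within a narrower range, at 0.363% ± 0.0726 in control, 0.382% ± 0.0212 in tubules and 0.239% ± 0.0260 in fat body.

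**Figure D1:**
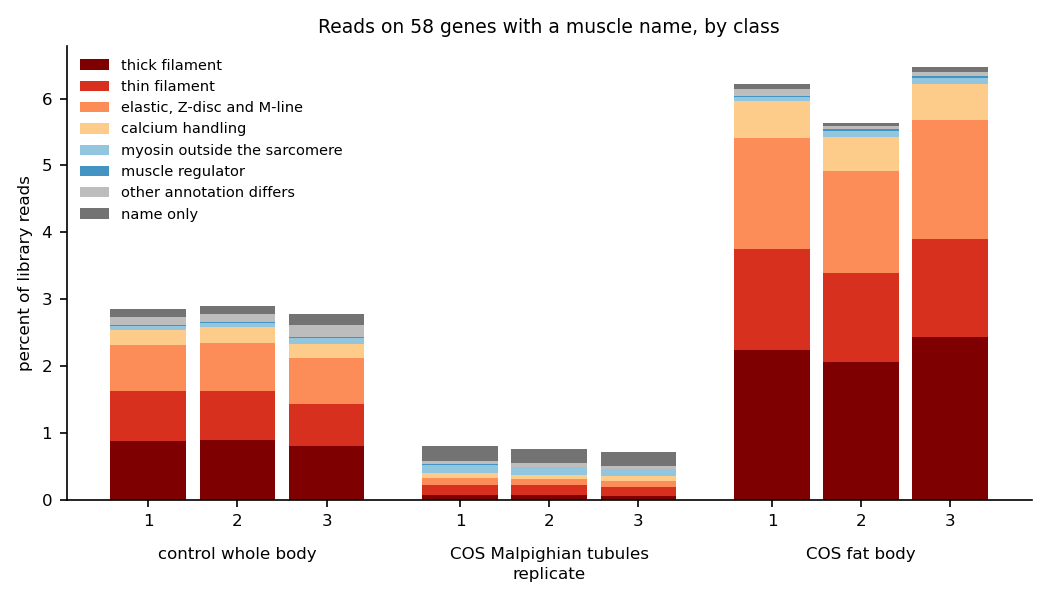
Percent of library reads on the 58 muscle-named genes in each of the 9 libraries, stacked by class of gene (vertical axis, percent of all reads in the library; horizontal axis, replicate within group). The bars stand at 2.78% to 2.90% in control, with 0.717% to 0.801% in tubules, while fat body has 5.64% to 6.47%, and in fat body nearly all of the height is thick filament, thin filament, elastic and calcium-handling genes.

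The thick filament is built from myosin heavy chains, a pair of light chains on each head and, in invertebrates, paramyosin. Of its 5 genes, 5 were lower in tubules than in control, and in fat body 4 were higher and 1 was lower. Paramyosin (LOC659309, RefSeq symbol Prm) read 2541, 2773 and 2569.8 CPM in control, 201, 158 and 151 in tubules and 9144, 8395 and 10429 in fat body. Its 3 groups did not overlap. The log2 fold change was -3.95 ± 0.17 (adjusted p = 1.72e-06) for tubules over control and 1.83 ± 0.16 (adjusted p = 7.02e-05) for fat body over control. For fat body over tubules it was 5.78 ± 0.19 (adjusted p = 1.40e-07), the highest of all 58 genes. Muscle myosin heavy chain (LOC659358, Mhc) is the motor of the sarcomere. It read 2957, 2899 and 2934 CPM in control, 252, 228 and 200.5 in tubules and 7924, 7433 and 9907 in fat body. Here too the groups were apart. The level in tubules was 12.9-fold below the control (log2 -3.69 ± 0.17, adjusted p = 1.72e-06) and that in fat body 2.87-fold above it (log2 1.52 ± 0.15, adjusted p = 1.11e-04). Fat body exceeded tubules 37.1-fold (log2 5.21 ± 0.18, adjusted p = 1.40e-07).

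Myosin regulatory light chain 2 (LOC663556, Mlc2) binds the neck of the myosin head. It read 1191, 1191 and 1072 CPM in control, 195, 164 and 159.6 in tubules and 3479, 2629 and 3254 in fat body. It followed the same order of groups, with log2 fold changes of -2.73 ± 0.16, 1.44 ± 0.15 and 4.17 ± 0.17 for tubules over control, fat body over control and fat body over tubules. The alkali light chain, which shares that neck, was present as LOC662923 and LOC663846, neighbours on the RefSeq assembly icTriCast1.1, and these differed. LOC662923 read 897, 928 and 842 CPM in control, 172, 221 and 162 in tubules and 3515, 2858 and 3012 in fat body, the order seen for myosin heavy chain. LOC663846 read 122, 130.1 and 98.4 CPM in control, 3.57, 3.97 and 0.602 in tubules and 2.53, 0.568 and 1.28 in fat body, so it was low in both treated tissues and high in the control alone. It was lower than control in tubules (log2 -5.42 ± 0.69, adjusted p = 1.61e-04) and in fat body (log2 -6.33 ± 0.73, adjusted p = 1.91e-04). The treated tissues overlapped (-0.91 ± 0.65, adjusted p = 0.224). Without fat body replicate 1 the value for fat body over control was -6.99 and that for fat body over tubules -1.57. Without tubule replicate 3 the latter was -1.38 and passed (adjusted p = 0.0289). The counts of LOC662923 were 7.34, 7.13 and 8.55 times those of LOC663846 in the control libraries. They were 48.2, 55.7 and 268 times as high in tubules and 1388, 5032 and 2348 times in fat body. How reads shared by such close copies were counted is not given in the sources used here.

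**Figure D2:**
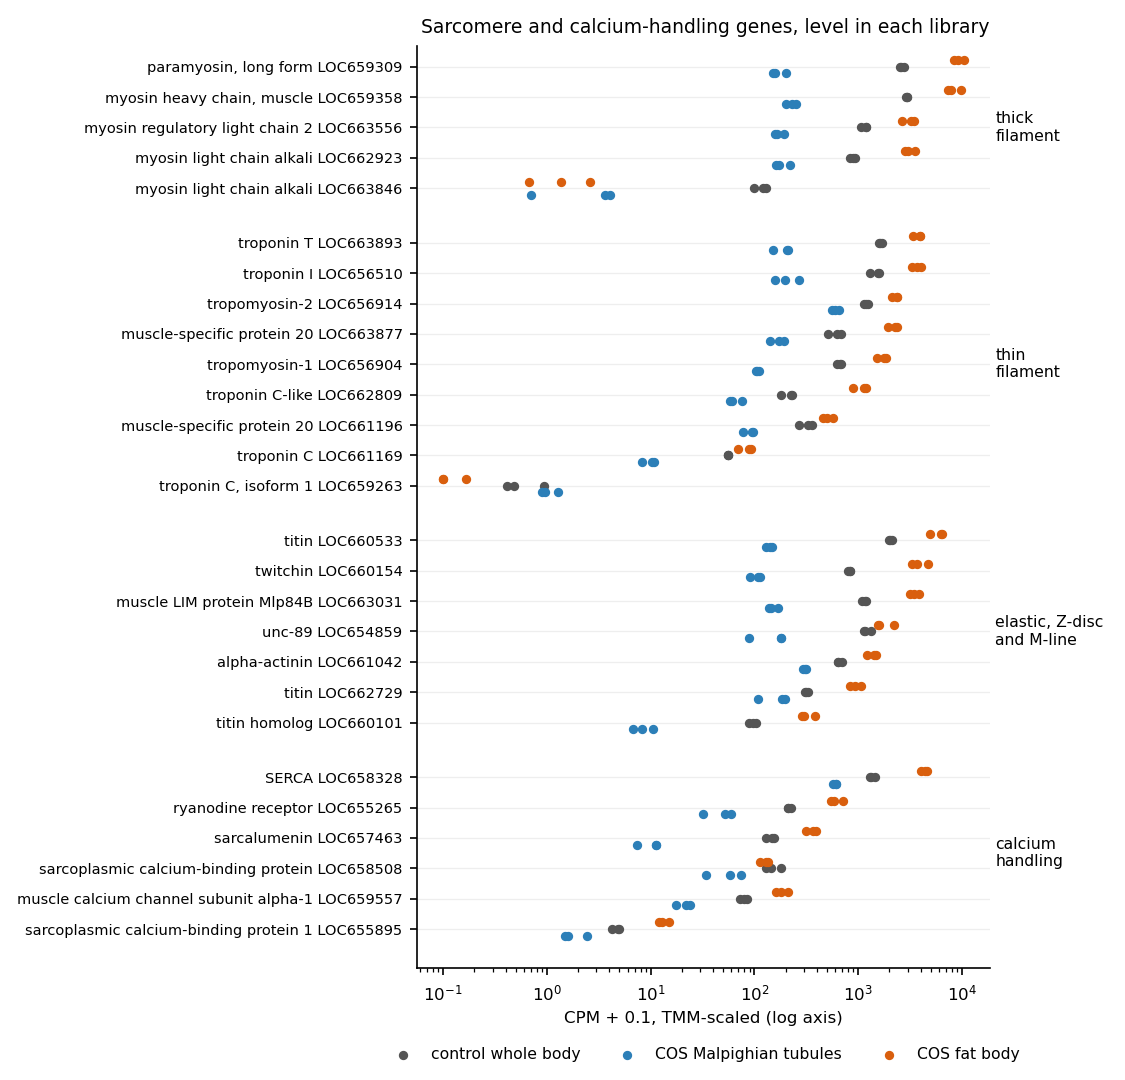
Level of each of the 27 sarcomere and calcium-handling genes in each library (horizontal log axis, TMM-scaled CPM plus 0.1; 3 points per group and gene; genes grouped by role). For most genes the fat body points lie to the right of the control points and the tubule points to their left, as for paramyosin at 8395 to 10429, 2541 to 2773 and 151 to 201 CPM, while the alkali light chain LOC663846 and troponin C isoform 1 LOC659263 do not follow that order.

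The thin filament carries tropomyosin along its length and a troponin complex of 3 subunits that switches it on when calcium binds. Among its 9 genes, 8 were lower in tubules and 1 did not pass, and 8 were higher and 1 lower in fat body than in control. Troponin T (LOC663893, symbol up), the subunit that anchors the complex to tropomyosin, read 1693, 1586 and 1626 CPM in control, 208, 212 and 152 in tubules and 3938, 3386 and 3980.1 in fat body. Troponin I (LOC656510, wupA), the inhibitory subunit, read 1558, 1597 and 1316 CPM in control, 198, 267 and 156 in tubules and 4059, 3319 and 3735 in fat body. Both were lower in tubules and higher in fat body, with no overlap between groups. Against the control, troponin T changed by -3.10 ± 0.17 and 1.20 ± 0.16 on the log2 scale and troponin I by -2.85 ± 0.21 and 1.31 ± 0.20. The ratio of troponin T to troponin I counts was 1.11 ± 0.122 (SD, n = 3) in control, 0.940 ± 0.131 in tubules and 1.02 ± 0.0477 in fat body. These overlapped (two-sided exact permutation p = 0.2, 0.4 and 0.5, where 0.1 is the smallest that 3 against 3 allows).

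Tropomyosin was encoded by neighbouring genes that did not move in proportion. LOC656914, deposited as tropomyosin-2 with the RefSeq symbol Tm1, read 1257, 1196 and 1133 CPM in control, 596, 653 and 567 in tubules and 2362, 2102 and 2376 in fat body. LOC656904, deposited as tropomyosin-1 with the symbol Tm2, read 664, 686 and 632 CPM in control, 106, 110.0 and 105 in tubules and 1856, 1512 and 1763 in fat body. Both passed the test in every comparison. In tubules, however, the log2 fold change over control was -0.98 ± 0.12 for the first and -2.63 ± 0.13 for the second. In fat body they were at 0.93 ± 0.12 and 1.37 ± 0.13 over control. The ratio of tropomyosin-2 to tropomyosin-1 counts was therefore 1.81 ± 0.0752 (SD, n = 3) in control, 5.65 ± 0.263 in tubules and 1.34 ± 0.0597 in fat body. No groups overlapped (two-sided exact permutation p = 0.1 each). This ratio is formed within a library and is free of scaling, but the split of reads between neighbouring copies carries the same doubt as for the light chains.

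Troponin C, the calcium sensor, had 3 genes among the 27. The troponin C-like gene LOC662809 (TpnC73F) read 230.3, 223 and 183 CPM in control, 60.4, 76.3 and 58.7 in tubules and 1133, 900.1 and 1189 in fat body. Its groups did not overlap, and its log2 fold change of fat body over control was the highest of the 58 genes, 2.34 ± 0.18 (adjusted p = 4.42e-05). LOC661169 (TpnC25D) read 56.0, 55.8 and 55.8 CPM in control, 8.17, 10.7 and 10.2 in tubules and 91.8, 69.9 and 88.4 in fat body. Against control its log2 fold change was -2.52 ± 0.18 (adjusted p = 8.89e-06) in tubules and 0.58 ± 0.17 (adjusted p = 0.0148) in fat body. The latter call was lost without control replicate 2 (log2 0.55, adjusted p = 0.0512). It was also lost with control replicate 3 and fat body replicate 1 both left out (0.50, adjusted p = 0.0775) and on library totals alone (0.32, adjusted p = 0.109). The ratio of LOC662809 to LOC661169 counts was 3.79 ± 0.458 in control, 6.75 ± 0.885 in tubules and 12.9 ± 0.552 in fat body (SD, n = 3). None of these overlapped (two-sided exact permutation p = 0.1 each).

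Troponin C isoform 1 (LOC659263) was close to the limit of detection. Its counts were 13, 6 and 5 reads in control, 23, 12 and 12 in tubules and 0, 0 and 1 in fat body. It was the sarcomere gene called lower in fat body than in tubules. Per library total, its level in fat body was 0.0347 of that in control (95% interval 0.000845 to 0.213, counting error only). The single fat body read came from replicate 3, and without that library the gene stood at 0 in fat body. On the RefSeq assembly icTriCast1.1 it lies between a pair of troponin C genes that were set aside above and that parted strongly in fat body. LOC659195 averaged 186 CPM in control, 7.37 in tubules and 598 in fat body, and LOC659336 averaged 449, 9.49 and 1.75 CPM. Flightin (LOC657758), a thick filament protein of flight muscle in Drosophila, averaged 454, 9.93 and 75.3 CPM, and the actin LOC655409 averaged 294, 12.4 and 17.9 CPM. Of these 4, LOC659195 alone had a higher mean in fat body than in control.

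Muscle-specific protein 20, a calponin-like protein of insect muscle, was also found as a pair. LOC663877 (Mp20) read 620.4, 679 and 514 CPM in control, 172, 192 and 140.0 in tubules and 2269, 1965 and 2385 in fat body. LOC661196 read 331, 362 and 272 CPM in control, 94.1, 97.0 and 77.8 in tubules and 506, 457 and 579 in fat body. Against control their log2 fold changes were -1.85 ± 0.17 and -1.84 ± 0.17 in tubules, and 1.87 ± 0.17 and 0.68 ± 0.17 in fat body. On library totals alone the call of LOC661196 in fat body was lost (log2 0.41, adjusted p = 0.0509). Their count ratio was 1.88 ± 0.00886 in control, 1.87 ± 0.0938 in tubules and 4.30 ± 0.183 in fat body (SD, n = 3). The control and tubule libraries overlapped, and the fat body libraries stood above both (two-sided exact permutation p = 1 and 0.1).

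Elastic, Z-disc and M-line proteins hold the filaments in register. All 7 of these genes were lower in tubules than in control and higher in fat body than in tubules, and 6 were higher in fat body than in control. Titin (LOC660533) read 1973, 2104 and 2013 CPM in control, 149, 140.4 and 130.4 in tubules and 6312, 4968 and 6467 in fat body. The groups were apart, with log2 fold changes of -3.86 ± 0.16 (adjusted p = 1.41e-06) for tubules over control and 1.54 ± 0.14 (adjusted p = 8.28e-05) for fat body over control. Fat body over tubules was 5.40 ± 0.17 (adjusted p = 1.40e-07). Twitchin (LOC660154, bt, the gene of projectin in Drosophila) is a giant kinase that links the Z-disc to the thick filament. It read 800.4, 839 and 834 CPM in control, 114, 108 and 90.4 in tubules and 3344, 3674 and 4674 in fat body. Its log2 fold change in fat body over control, 2.24 ± 0.17 (adjusted p = 4.42e-05), was the second highest of the 58 genes. Muscle LIM protein Mlp84B (LOC663031), a Z-disc protein in Drosophila, read 1092, 1195 and 1164 CPM in control, 139, 171 and 144 in tubules and 3858, 3159 and 3423 in fat body, with the groups in the same order.

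The titin homolog LOC660101 (MnM) read 89.2, 103 and 97.2 CPM in control, 10.4, 8.15 and 6.69 in tubules and 288, 299 and 383 in fat body. It was among the genes with the widest span between tissues, a log2 fold change of 5.26 ± 0.23 (adjusted p = 2.56e-07) for fat body over tubules. Unc-89 (LOC654859, Obsc) is a giant protein of the M-line, where thick filaments are joined. It read 1147, 1176 and 1326 CPM in control, 181, 179 and 89.3 in tubules and 1597, 1559 and 2199.5 in fat body. It was lower in tubules (-3.02 ± 0.29, adjusted p = 3.29e-05), while the fat body value over control, 0.55 ± 0.27 (adjusted p = 0.0896), did not pass although the libraries did not overlap. It passed without tubule replicate 3 (adjusted p = 0.0189), with RLE or the authors' factors (adjusted p = 0.0255 and 0.0405), with DESeq2 (adjusted p = 0.0204) and in the fit of only the 2 groups (adjusted p = 0.0278). Alpha-actinin (LOC661042, Actn) crosslinks thin filaments at the Z-disc. With a further titin (LOC662729) it had the smallest changes of the class in tubules, at -1.11 ± 0.13 and -0.96 ± 0.22. In fat body these genes were higher than control by 1.06 ± 0.13 and 1.58 ± 0.22.

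Calcium handling starts with a voltage-gated channel in the membrane, passes through the ryanodine receptor and ends with the pump SERCA, which returns calcium to the sarcoplasmic reticulum. All 6 genes of this class were lower in tubules than in control and higher in fat body than in tubules, and 5 of 6 were higher in fat body than in control. SERCA (LOC658328) read 1299, 1456 and 1344 CPM in control, 609, 578 and 609 in tubules and 4618, 4071 and 4396 in fat body. All groups were apart. The level was 2.28-fold below control in tubules (log2 -1.19 ± 0.12, adjusted p = 4.38e-05) and 3.19-fold above it in fat body (log2 1.67 ± 0.12, adjusted p = 4.30e-05). The ryanodine receptor (LOC655265, RyR) read 211, 212 and 224 CPM in control, 51.9, 32.1 and 59.6 in tubules and 549, 588 and 709 in fat body. Against control it changed by -2.17 ± 0.23 and 1.51 ± 0.22, again without overlap. Sarcalumenin (LOC657463), a calcium-binding protein of the reticulum lumen, read 130.1, 155 and 146 CPM in control, 11.2, 11.1 and 7.36 in tubules and 390.4, 318 and 369 in fat body. In tubules over control its log2 fold change was -3.86 ± 0.21 (adjusted p = 2.91e-06), among the 4 lowest of the 58 genes.

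The muscle calcium channel subunit LOC659557 changed by -1.91 ± 0.18 in tubules and 1.22 ± 0.17 in fat body against control. Sarcoplasmic calcium-binding protein 1 (LOC655895), a soluble calcium buffer, changed by -1.39 ± 0.26 and 1.54 ± 0.25. A second sarcoplasmic calcium-binding protein (LOC658508, CBP) read 180.2, 129 and 145 CPM in control, 58.5, 33.8 and 75 in tubules and 129.7, 112 and 135 in fat body. Its tubule libraries were below the control (-1.44 ± 0.28, adjusted p = 0.00168), and its fat body libraries overlapped the control (-0.27 ± 0.27, adjusted p = 0.393).

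Levels of different genes can be set side by side only per length. The deposited gene lengths were within 5% of the genomic span for 43 of the 56 genes found in RefSeq, and ran from 1.10 to 43.9 times the coding length. CPM per kilobase of coding length were therefore used. Coding length came from the deposited protein length, of a single isoform and without untranslated regions. That can raise short genes against long ones, so the order of genes is approximate. In control the highest were troponin I at 2366, the alkali light chain LOC662923 at 1975, myosin regulatory light chain 2 at 1928 and troponin T at 1423 CPM per coding kilobase. Myosin heavy chain stood at 498, titin LOC660533 at 27.6 and the ryanodine receptor at 14.2 CPM per coding kilobase. In fat body the first 3 were the same genes in another order, with the alkali light chain at 6952, troponin I at 5880 and regulatory light chain 2 at 5227. In tubules tropomyosin-2 (LOC656914) came first at 710.1 CPM per coding kilobase, above the alkali light chain at 411 and troponin I at 329.

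**Figure D3:**
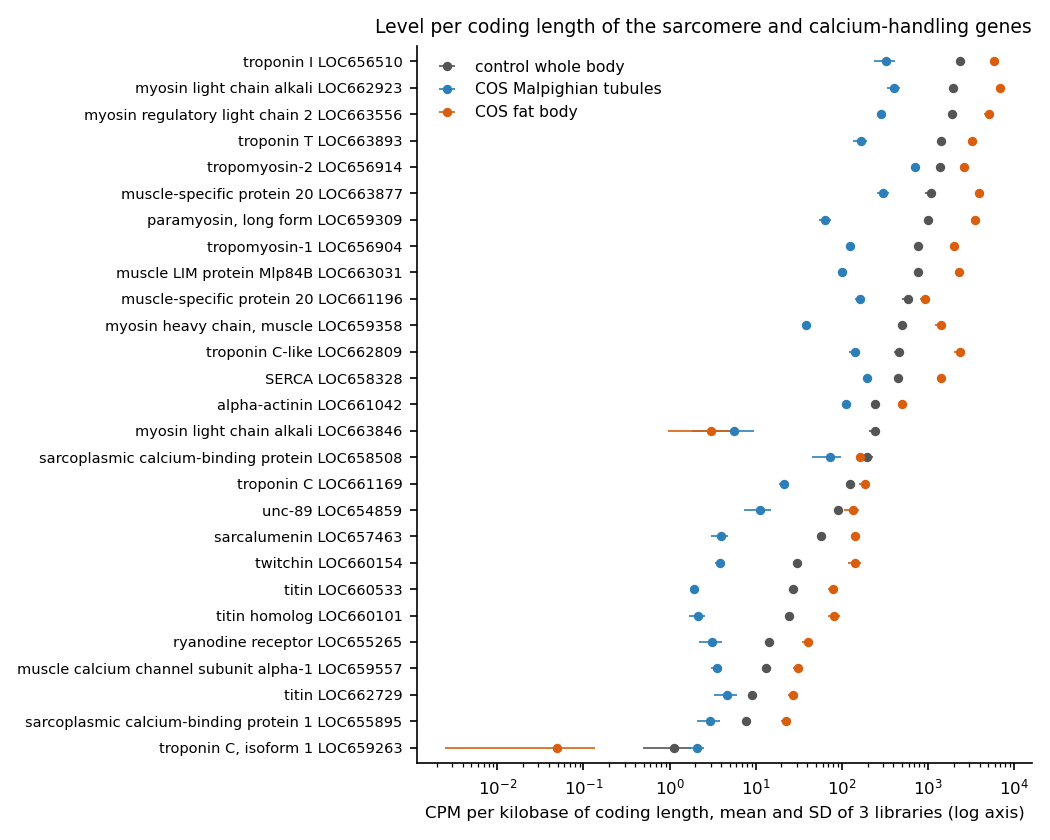
CPM per kilobase of coding length for the 27 sarcomere and calcium-handling genes (horizontal log axis; points and bars, mean and SD of 3 libraries per group; genes ordered by the control level; the SD bar of troponin C isoform 1 in fat body reaches below 0 and is drawn only in part). On this measure, which can raise short genes, small filament proteins lead in control and fat body, with troponin I at 2366 and 5880. Tropomyosin-2 leads in tubules at 710.1.

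To see whether the sarcomere genes moved in proportion, each was divided by muscle myosin heavy chain in the same library, which removes scaling between libraries. In tubules 20 of 26 genes had a higher ratio than in control without overlap, 3 had a lower one and 3 overlapped. Myosin heavy chain itself was low in tubules, so among all tested genes 94.3% had a higher ratio without overlap and 0.773% a lower one. The median log2 difference was 3.59 over those genes and 1.29 over the 26. Paramyosin and titin LOC660533 were below the control ratio, at -0.27 ± 0.08 and -0.16 ± 0.05 (difference in log2 ratio ± SE). Sarcalumenin and the titin homolog LOC660101 overlapped it, at -0.19 ± 0.14 and 0.16 ± 0.11. At the other end were tropomyosin-2 at 2.71 ± 0.10, titin LOC662729 at 2.69 ± 0.31, alpha-actinin at 2.59 ± 0.12 and SERCA at 2.51 ± 0.12. The third gene below was the alkali light chain LOC663846, at -2.13 ± 0.81. Expression of the sarcomere and calcium genes in cells other than muscle was not tested.

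In fat body the same ratios stayed closer to the control. Of 25 genes with counts in every library, 17 were within 0.5 of the control on the log2 scale, 5 had a higher ratio without overlap, 9 a lower one and 11 overlapped, with a median difference of -0.08. Over all tested genes 3.26% had a higher ratio without overlap and 81.8% a lower one, with a median difference of -1.69. Among those above the control ratio were troponin C-like LOC662809 at 0.83 ± 0.13, twitchin at 0.71 ± 0.07 and paramyosin at 0.31 ± 0.06. Below it were the alkali light chain LOC663846 at -8.08 ± 0.62, the sarcoplasmic calcium-binding protein LOC658508 at -1.77 ± 0.15, unc-89 at -0.97 ± 0.08, troponin C LOC661169 at -0.94 ± 0.12 and muscle-specific protein 20 LOC661196 at -0.83 ± 0.13. With 3 libraries a group, each of these differences without overlap has a two-sided exact permutation p of 0.1, the smallest possible.

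**Figure D4:**
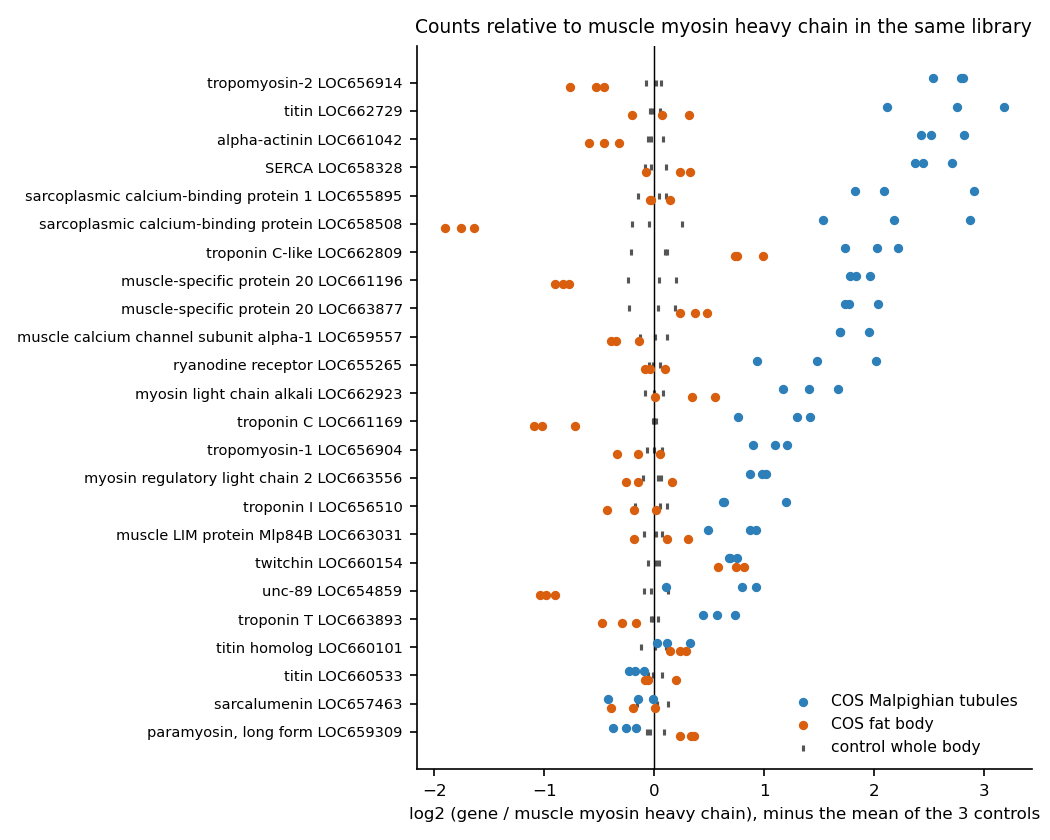
Log2 ratio of each sarcomere and calcium-handling gene to muscle myosin heavy chain within a library, minus the mean of the 3 control libraries (horizontal axis, log2 units; 1 point per library; the alkali light chain LOC663846 and troponin C isoform 1 LOC659263 are not drawn). Tubule points spread from about the control level for paramyosin, titin LOC660533 and sarcalumenin to a mean of 2.71 for tropomyosin-2, while the fat body points lie mostly near 0, as for titin LOC660533 at 0.02 ± 0.10.

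Myosins outside the sarcomere move cargo, shape membranes and divide cells in most cell types. Unlike the sarcomere genes, 5 of these 9 were higher in tubules than in control, 1 was lower and 3 did not pass, and 4 were higher and 1 lower in fat body than in control. Non-muscle myosin heavy chain (LOC663025, zip), the motor of cell division, was the most abundant and read 300.3, 274 and 380.0 CPM in control, 438, 427 and 309 in tubules and 417, 529 and 575 in fat body. Its tubule and control libraries overlapped (0.30 ± 0.20, adjusted p = 0.212). Fat body over tubules did not pass (0.37 ± 0.20, adjusted p = 0.114), but did without fat body replicate 1 (0.50, adjusted p = 0.0499). With all libraries kept, it passed with RLE factors (0.57, adjusted p = 0.0429), the authors' factors (1.03, 0.00118) and DESeq2 (0.56, 0.0470). The rise in fat body over control (0.67 ± 0.20, adjusted p = 0.0161) did not pass when control replicate 1 (adjusted p = 0.0513), control replicate 2 (0.0644) or fat body replicate 3 (0.0591) was left out, or on library totals alone (0.0751).

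Unconventional myosin-Va (LOC663516, didum), a transport motor, read 46.6, 57.8 and 47.5 CPM in control, 193, 134 and 204 in tubules and 39.3, 57.6 and 39.2 in fat body. The tubule libraries lay above all others (log2 1.80 ± 0.23, adjusted p = 1.62e-04 over control). Myosin-IB (LOC100142377, Myo61F), a single-headed myosin that links actin to membranes, read 91.3, 77.3 and 122 CPM in control, 243, 394 and 204 in tubules and 49.9, 75.2 and 58.7 in fat body. Its tubule libraries were again the highest (log2 1.53 ± 0.29, adjusted p = 0.00152 over control). In the fit of all 9 libraries with TMM factors, its value in fat body against control did not pass (-0.66 ± 0.29, adjusted p = 0.0635). The adjusted p fell to 0.0481 once control replicate 2 was dropped, and to 0.0305 once tubule replicate 2 was. It was also under 0.05 with upper-quartile factors (0.0362), on library totals alone (0.0161) and in the fit of only the 2 groups (0.0381). Myosin-VIIa (LOC663995, ck), known in Drosophila for shaping hairs and bristles, read 30.3, 33.6 and 31.9 CPM in control, 138, 104 and 135 in tubules and 49.98, 49.8 and 55.1 in fat body. It was above control in both tissues, by 1.97 ± 0.16 in tubules and 0.69 ± 0.16 in fat body. The myosin deposited as IXa (LOC657914, dachs, a growth regulator in Drosophila) read 2.85, 2.91 and 2.38 CPM in control, 11.6, 4.98 and 15.6 in tubules and 3.80, 4.54 and 4.996 in fat body. In tubules over control it stood at 1.98 ± 0.39 (adjusted p = 0.00189). Its call in fat body over tubules (-1.27 ± 0.38, adjusted p = 0.0119) was lost with the authors' size factors (adjusted p = 0.162). Fat body over control, which did not pass, passed without tubule replicate 2 (0.71, adjusted p = 0.0216) and in the fit of only the 2 groups (0.70, adjusted p = 0.0243). The mean of each of these 4 motors was highest in tubules, although for LOC657914 tubule replicate 2 lay within the fat body range.

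Unconventional myosin-XV (LOC658144, Myo10A) went the other way, at 35, 38.2 and 32.9 CPM in control, 5.94, 6.35 and 9.96 in tubules and 68.8, 103 and 145 in fat body. Its groups did not overlap, and the log2 fold changes over control were -2.25 ± 0.31 (adjusted p = 2.32e-04) in tubules and 1.58 ± 0.30 (adjusted p = 0.00175) in fat body. Several calls of LOC662874, deposited as myosin-VIIa like LOC663995, and of the myosin LOC662516 were lost with 1 library left out. In fat body over control LOC662874 was lower and LOC663995 higher (-0.94 and 0.69). For LOC662874, the rise in tubules (0.93 ± 0.29, adjusted p = 0.0184) did not pass without control replicate 1 (adjusted p = 0.0616), control replicate 2 (0.0677) or tubule replicate 2 (0.0671), nor with the authors' size factors (0.177). Its lower value in fat body (-0.94 ± 0.29, adjusted p = 0.0178) did not pass without control replicate 3 (0.0897) or fat body replicate 3 (0.0601). Its lower value in fat body than in tubules (-1.87 ± 0.29, adjusted p = 2.83e-04) passed under every alternative run. For LOC662516 (Myo81F), the higher value in fat body over control (0.94 ± 0.35, adjusted p = 0.0391) failed without control replicate 1 (adjusted p = 0.0569), 2 (0.0803) or 3 (0.110) and without fat body replicate 2 (0.0758) or 3 (0.111). Its call in fat body over tubules (1.03 ± 0.35, adjusted p = 0.0224) was lost without fat body replicate 3 (0.0670). Myosin-XVIIIa (LOC103313333, Mhcl) passed in none of the 3 comparisons, at -0.36, 0.18 and 0.54. Without fat body replicate 1 the value for fat body over tubules passed (0.71, adjusted p = 0.0249). With all libraries kept, it passed with RLE (0.72, adjusted p = 0.0473), upper-quartile (0.63, 0.0338) and the authors' factors (1.20, 0.00127) and with DESeq2 (0.72, 0.0408). Tubules over control passed with the authors' factors (-0.84, adjusted p = 0.0133).

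Of the regulators named for muscle, 2 of 3 were lower in tubules and 2 of 3 higher in fat body than in control, and all 3 were higher in fat body than in tubules. Muscleblind-like protein 2a (LOC100142119, mbl) is a splicing factor needed for muscle differentiation in Drosophila. It read 113, 113 and 122 CPM in control, 126, 114 and 122 in tubules and 156, 231 and 271 in fat body. Tubules overlapped the control (0.05 ± 0.20, adjusted p = 0.827) and fat body was above it (0.91 ± 0.20, adjusted p = 0.00359). The homeobox gene LOC663938, of the MSX family, read 9.07, 9.05 and 7.64 CPM in control, 2.02, 2.67 and 2.94 in tubules and 15.5, 15.9 and 20.2 in fat body. Over control it changed by -1.76 ± 0.23 in tubules and 1.0 ± 0.22 in fat body. The related Msh read 8.49, 7.72 and 5.33 CPM in control, 2.12, 2.81 and 2.27 in tubules and 6.20, 5.74 and 7.70 in fat body. Here fat body overlapped the control (-0.13 ± 0.25, adjusted p = 0.643) and tubules were below it (-1.58 ± 0.27, adjusted p = 7.78e-04).

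The 6 genes with other annotation all had a titin or myosin name. LOC658064, deposited as titin but annotated as protein kinase C delta (Pkcdelta), read 183, 196 and 182 CPM in control, 30.5, 33.8 and 20.4 in tubules and 139, 134 and 181 in fat body. It was lower in tubules than in control (-2.73 ± 0.22, adjusted p = 1.53e-05) and did not pass in fat body (-0.30 ± 0.21, adjusted p = 0.208). On library totals alone the fat body value passed (-0.57, adjusted p = 0.0298). LOC663899, deposited as myosin-9 but annotated as stathmin (stai), a protein that destabilises microtubules, read 77.6, 94.0 and 143 CPM in control, 270.1, 149 and 314 in tubules and 53.2, 36 and 29.6 in fat body. It was higher in tubules (1.22 ± 0.35, adjusted p = 0.0127) and lower in fat body (-1.41 ± 0.35, adjusted p = 0.00694) than in control. The tubule call failed without control replicate 1 (adjusted p = 0.0501) and with the size factors of the authors (adjusted p = 0.0602). LOC663619, annotated as the ubiquitin ligase LUBEL, and LOC663321, annotated as tnc, had the same order of groups as most sarcomere genes. Their log2 fold changes over control were -2.61 ± 0.20 and -2.84 ± 0.35 in tubules and 1.32 ± 0.19 and 1.65 ± 0.32 in fat body.

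Another of these 6, LOC656030, deposited as titin with only a domain of unknown function, read 674, 646 and 1318 CPM in control, 274, 353 and 108 in tubules and 678, 66.7 and 303 in fat body. Control replicate 3 and fat body replicate 1 were the highest of their groups, and no comparison passed (log2 -1.84, -1.33 and 0.51). Without fat body replicate 1, fat body was lower than control (-2.25, adjusted p = 0.0234) and tubules were lower than control (-1.85, adjusted p = 0.0283), while fat body over tubules turned to -0.40. The tubule value also passed without fat body replicate 2 (adjusted p = 0.0118). With all libraries kept, it passed with RLE, upper-quartile or the authors' factors (adjusted p = 0.0294, 0.0319 and 0.0194) and on library totals alone (0.0311). It passed too with DESeq2 (0.00521) and in the fit of only the 2 groups (0.00847). Without control replicate 3 as well as fat body replicate 1, the 3 values were -1.43, -1.84 and -0.40, and none passed. LOC660967, deposited as a myosin heavy chain and annotated as CCDC151, a protein of cilia and flagella, read 4.86, 5.25 and 9.40 CPM in control, 4.60, 5.70 and 3.68 in tubules and 2.53, 0.682 and 1.15 in fat body. It was lower in fat body than in control (-2.17 ± 0.48, adjusted p = 0.00418) and than in tubules (-1.68 ± 0.48, adjusted p = 0.00980). Without fat body replicate 1 these values were -2.83 and -2.34, and the second call failed with the authors' size factors (adjusted p = 0.0544).

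**Figure D5:**
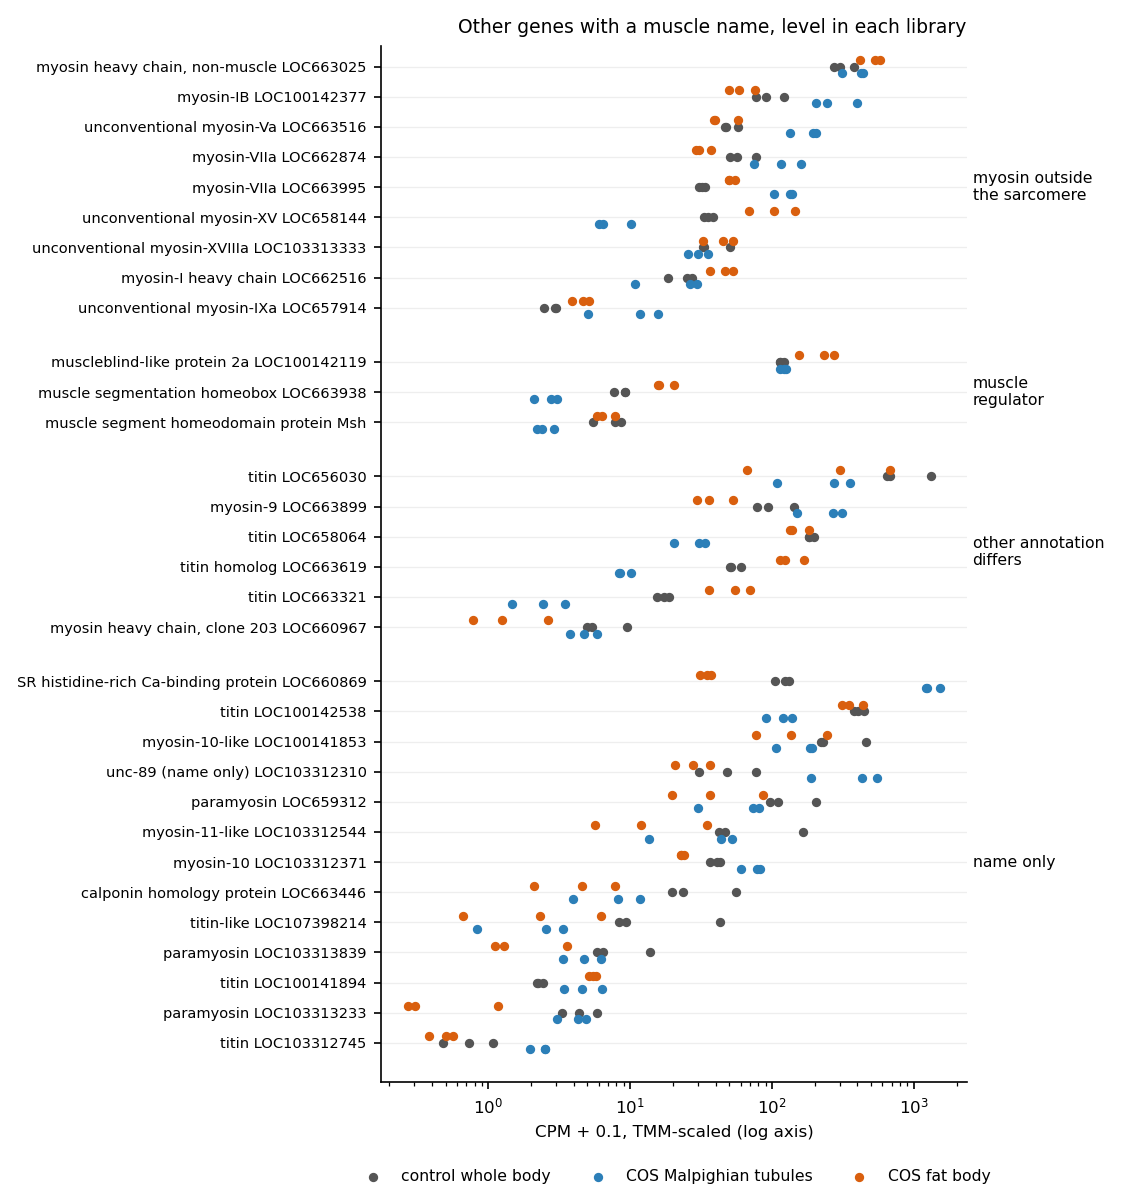
Level of each of the 31 other muscle-named genes in each library (horizontal log axis, TMM-scaled CPM plus 0.1; 3 points per group and gene; genes grouped by class). No common order of groups is seen: LOC660869 lies at 1210.4 to 1529 CPM in tubules and 31.1 to 36.9 in fat body, unconventional myosin-XV shows the reverse, and LOC107398214 has 1 control library at 43 CPM and the others at 8.30 and 9.18.

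The 13 genes with a muscle name and no deposited domain or orthology were mostly lower in fat body than in control. There 8 were lower and 1 higher (61.5% and 7.69%), against 36.9% and 32.2% of all tested genes. Some of these calls were lost with single libraries left out, as given below. In tubules 5 were higher and 3 lower (38.5% and 23.1%), near the 32.6% and 30.2% of all tested genes. The gene deposited as sarcoplasmic reticulum histidine-rich calcium-binding protein (LOC660869) read 132, 106 and 123 CPM in control, 1231, 1529 and 1210.4 in tubules and 36.9, 31.1 and 34.4 in fat body. Its groups were far apart, in the order opposite to that of the sarcomere genes. The level in tubules was 11-fold that in control (log2 3.46 ± 0.17, adjusted p = 2.01e-06) and 38.8-fold that in fat body (log2 -5.28 ± 0.18, adjusted p = 1.40e-07 for fat body over tubules). In fat body its log2 fold change over control was -1.81 ± 0.16. A gene named for the M-line protein unc-89 (LOC103312310) read 48.3, 76.8 and 30.6 CPM in control, 431, 189 and 553 in tubules and 36.7, 27.4 and 20.6 in fat body. It was higher in tubules than in control (2.91 ± 0.47, adjusted p = 5.99e-04) and overlapped the control in fat body (-0.88 ± 0.44, adjusted p = 0.101). The titin-named LOC100142538 read 401, 447 and 379 CPM in control, 119, 137 and 90.1 in tubules and 311, 347 and 441 in fat body. It was lower than control in tubules (-1.82 ± 0.20, adjusted p = 7.11e-05) and did not pass in fat body (-0.16 ± 0.20, adjusted p = 0.473).

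Further members of this class moved with control replicate 3 and fat body replicate 1. In a list of 36 testis and sperm genes, the median gene was 1.30 higher on the log2 scale in control replicate 3 than in the other controls and 1.69 higher in fat body replicate 1 than in the other fat body libraries. For the 13 genes with a name only, these medians were 0.15 and 1.25, with 5 and 7 of the 13 above 1, while for the 27 sarcomere and calcium genes they were -0.03 and 0.09, with 0 and 1 of the 27 above 1. Summed over the testis and sperm list, levels were 2292 to 5571 CPM (control), 1083 to 2144 CPM (tubules) and 597 to 2101 CPM (fat body). Its part in the values of the name-only genes was not tested.

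Myosin-10-like LOC100141853 was such a gene, at 221, 230.0 and 457 CPM in control, 186, 192 and 107 in tubules and 242, 76.9 and 136 in fat body. In the fit of all 9 libraries with TMM factors it passed in no comparison (-0.91, -1.0 and -0.09). The tubule value over control passed with upper-quartile or the authors' factors (adjusted p = 0.0437 and 0.0176) and on library totals alone (0.0423). It also passed with DESeq2 (0.0472) and in the fit of only the 2 groups (0.0457). The fat body value over control passed with upper-quartile factors (0.0387) and on library totals alone (0.0280). Without fat body replicate 1 the value in fat body over control was -1.51 and passed (adjusted p = 0.0137), without control replicate 3 it was -0.56 and did not, and without both it was -1.09 (adjusted p = 0.0314). The paramyosin-named LOC103313233 read 5.77, 3.23 and 4.26 CPM in control, 4.81, 4.18 and 2.94 in tubules and 1.07, 0.170 and 0.203 in fat body. It was lower in fat body than in control (-3.20 ± 0.61, adjusted p = 0.00185) and than in tubules (-3.06 ± 0.61, adjusted p = 0.00123), and these values were -4.52 and -4.36 without fat body replicate 1. The calponin-named LOC663446 read 19.5, 23.4 and 55.6 CPM in control, 8.12, 11.6 and 3.88 in tubules and 7.73, 1.99 and 4.46 in fat body. It was lower than control in tubules (-2.06 ± 0.60, adjusted p = 0.0142) and fat body (-2.80 ± 0.62, adjusted p = 0.00401), at -1.43 and -2.17 without control replicate 3.

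Calls of 4 more genes of this class depended on single libraries. The titin-like LOC107398214 read 8.30, 9.18 and 43 CPM in control, 3.26, 2.45 and 0.736 in tubules and 6.13, 0.568 and 2.23 in fat body. Its call in tubules over control (-3.22 ± 0.96, adjusted p = 0.0162) failed without control replicate 3 (log2 -1.99, adjusted p = 0.0599) or tubule replicate 3 (-2.81, adjusted p = 0.0526). Its call in fat body over control (-2.77 ± 0.94, adjusted p = 0.0269) was lost without control replicate 3 (-1.57, adjusted p = 0.114), or either of fat body replicates 2 (-2.27, adjusted p = 0.0589) and 3 (-2.60, adjusted p = 0.0834). Its value was -3.87 without fat body replicate 1. Myosin-11-like LOC103312544 lost its call in fat body over control (-2.28 ± 0.81, adjusted p = 0.0326) without control replicate 3 (-1.36, adjusted p = 0.121), or either of fat body replicates 2 (-1.86, adjusted p = 0.0781) and 3 (-2.07, adjusted p = 0.0994). It stood at -3.28 without fat body replicate 1. Without that library it was also lower in fat body than in tubules (-2.07, adjusted p = 0.0387). In both genes control replicate 3 lay above the other controls.

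For the paramyosin-named LOC659312, the call in fat body over control (-1.54 ± 0.58, adjusted p = 0.0387) failed without control replicate 2 (adjusted p = 0.0501) or 3 (0.107), tubule replicate 1 (0.0522) or 2 (0.05005) or fat body replicate 2 (0.0911) or 3 (0.112). The value was -2.29 without fat body replicate 1, and the tubule value over control then passed (-1.16, adjusted p = 0.0455). That tubule value also passed with the authors' factors (adjusted p = 0.0255) and on library totals alone (0.0499). It passed too with DESeq2 (0.0312) and in the fit of only the 2 groups (0.0394). For the paramyosin-named LOC103313839, the value in fat body over control was -2.18 ± 0.55 (adjusted p = 0.00719), or -2.94 without fat body replicate 1. Its call in fat body over tubules (-1.31 ± 0.54, adjusted p = 0.0493) failed without control replicate 1 (adjusted p = 0.0560) or 2 (0.0572), tubule replicate 1 (0.0867) or 2 (0.144), or fat body replicate 2 (0.142) or 3 (0.147). With the authors' size factors it failed too (0.247), and it stood at -2.06 without fat body replicate 1. The last 3 genes of the class, myosin-10 (LOC103312371) and the titins LOC100141894 and LOC103312745, were higher in tubules than in control, at 0.88, 1.09 and 1.76. With the authors' size factors the calls of LOC103312371 and LOC100141894 failed (adjusted p = 0.0558 and 0.0780).

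Genes of muscle that the name rule did not take were read from a separate list of 23, covering attachment, energy supply, filament capping and the membrane. The list also holds genes whose names are not particular to muscle, such as a cytoplasmic actin and a talin. In this list 4 were higher and 8 lower in tubules than in control, 16 were higher and 2 lower in fat body than in control, and 18 were higher and 3 lower in fat body than in tubules. Its summed level was 3774 to 4126 CPM in control, against 3113 to 3450 CPM in tubules, and fat body had 6276 to 7538 CPM. Arginine kinase (LOC660479), which keeps the phosphagen store of insect muscle, averaged 601 ± 53.9 CPM (SD, n = 3) in control, 545 ± 162 in tubules and 1406 ± 224 in fat body. Its log2 fold changes over control were -0.14 ± 0.22 (adjusted p = 0.583) in tubules and 1.23 ± 0.22 (0.00143) in fat body. Spectrin beta chain (LOC661354), a membrane skeleton protein of many cell types, averaged 486 ± 0.887, 470.0 ± 35.1 and 743 ± 198 CPM, with -0.05 ± 0.19 (0.835) and 0.61 ± 0.20 (0.0208).

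A list of 58 genes of muscle membrane and innervation (ion channels, transmitter receptors and synaptic proteins, which neurons also express) had 57 genes tested. Of these, 3 were higher and 41 lower in tubules than in control, and 14 were higher and 9 lower in fat body than in control. In fat body against tubules, 39 were higher and 6 lower. For this list and the preceding one, the background is the share of all tested genes. In tubules against control 32.6% were higher and 30.2% lower, and in fat body against control 32.2% and 36.9%. In fat body against tubules the shares were 38.8% and 41%. The membrane and innervation list summed to 804 to 829 CPM in control, against 413 to 508 CPM in tubules, and fat body had 955 to 1283 CPM. Its most abundant members were the synaptic proteins complexin (LOC657060) and synaptotagmin-16 (LOC662739). The first averaged 63.1 ± 3.08, 22.3 ± 2.45 and 82.8 ± 16.5 CPM in control, tubules and fat body, and the second 27.4 ± 7.88, 93.0 ± 50.5 and 30.2 ± 3.39 CPM (SD, n = 3). The part of nerve RNA in the values of the muscle genes was not tested. Markers of haemocytes (5 genes) summed to 192 to 232 CPM in control, against 62.5 to 127 CPM in tubules. Fat body had 372 to 603 CPM. Integrin alpha-PS2 (LOC657993) is among the 5 and is also in the list of other muscle genes above. It averaged 79.0 CPM in control, 56.3 in tubules and 152 in fat body. The part of haemocyte RNA was not tested either.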

How the data were processed

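RNA was sequenced from 9 libraries, 3 for each group. Alignment was to assembly Tcas5.2, per the labels' protocols, and the submitters' processing notes list Trimmomatic 0.32. Neither aligner nor counter is given in the sources used here, and the treatment of strand and of reads shared by close copies is likewise not stated. The authors' deposited table gives expected counts, all of them whole numbers. It also holds a normalized signal that the authors made with DESeq, the authors' FPKM and TPM values, and log2 fold changes from the authors' own comparisons, per the file headers. Each listed gene passed a log2 fold change of 1 in size in at least 1 of those comparisons.

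Counts went into edgeR's quasi-likelihood test (edgeR 4.0.16, R 4.3.3), with Benjamini-Hochberg adjustment. The fit used filterByExpr, TMM factors, library totals recovered from count, FPKM and length, all 9 libraries and no covariate. Log2 fold changes have an approximate SE, the fold change over the square root of F. DESeq2 1.42.0 served as an alternative. The fit was also run on simulated counts in which only a small part of the genes was changed. In the data most genes passed, so that run does not check the scaling used here. Library totals of 13435869 to 19866421 reads limit what is detectable for genes of few counts. Other per-sample columns numbered 0.

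The genes and lists were chosen with earlier results of these data known, and 47 text matches were removed from the 9 lists. The genes given with values in each library were the 3 of highest mean level in each class and, per comparison, the 4 genes at either end of the log2 fold changes among those that passed. Further genes (neighbouring copies, remaining members of a class, and genes whose calls depended on single libraries) were added after their values were seen. The classes rest on deposited domains, KEGG orthology and RefSeq symbols, not on the description text alone. Of the 58 genes, 56 matched the RefSeq table of assembly icTriCast1.1, used for symbols and neighbours only.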

Additional observations from a re-analysis of the deposited data

How the results depend on the processing

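No median and none of the 139 calls of the 58 genes reversed its direction under the 19 alternatives. Of 35 values that did not pass, 20 passed under at least 1 alternative and 12 turned direction under at least 1, each of the 12 being 0.51 or less in size on the log2 scale and none passing once turned. For the genes given with values in each library, muscleblind in tubules over control turned to -0.17 with upper-quartile factors, -0.44 with the authors' factors and -0.18 on library totals, and LOC663025 there to -0.18 with the authors' factors. LOC103313233 in tubules over control ranged from -0.33 to 0.086 with single libraries left out. With RLE factors, the authors' factors and DESeq2, fat body over control turned to 0.053, 0.0045 and 0.048 for LOC100142538, to 0.051, 0.0099 and 0.047 for LOC663516 and to 0.067, 0.020 and 0.061 for Msh, which was 0.0041 without control replicate 1. Fat body over tubules for LOC100141853 turned to 0.038, 0.54 and 0.033 with these, and ranged from -0.60 to 0.23 with single libraries left out. For LOC656030 it turned to -0.40 without fat body replicate 1, with or without control replicate 3, and reached 1.006 without fat body replicate 2. Other scalings moved the median log2 fold change over all tested genes by -0.49 (authors' size factors, tubules over control) to 0.65 (the same, fat body over tubules). Over the 58 genes, 7 were higher in tubules than in control with the authors' size factors, against 11. The median for tubules over control was -1.87 with upper-quartile factors, -2.14 with the authors' factors, -1.89 on library totals alone, -1.46 without control replicate 3 and fat body replicate 1 together, and -1.75 to -1.43 with single libraries left out. For fat body over control it was 0.91 with RLE factors, 0.57 with upper-quartile factors, 0.87 with the authors' factors, 0.44 on library totals and 0.90 with DESeq2. For fat body over tubules it was 1.97 with RLE and 2.44 with the authors' factors.

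Over the 27 sarcomere and calcium genes, a set drawn up after seeing the data, the median for tubules over control was -2.75 with upper-quartile factors, -3.01 with the authors' factors and -2.76 on library totals. For fat body over control it was 1.62 with RLE factors and with DESeq2 and 1.18 on library totals, and for fat body over tubules 4.37 with the authors' factors. With single libraries left out, 0 to 1 of the 27 were higher in tubules than in control (LOC659263, without control replicate 1) and 1 to 2 were lower in fat body than in tubules (LOC663846, without tubule replicate 3). In the fit of only the 2 groups compared, 1 was lower in fat body than in control, since the filter on low counts removed LOC659263 there. Summed deposited TPM put the share of the 58 genes at 1.12% in control, 0.448% in tubules and 2.67% in fat body, since TPM divides by the deposited gene length. Beyond that, the cause of these shifts was not tested.

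Of the 139 calls, 17 were lost under at least 1 of 19 alternatives. Whether the replicate numbers pair the libraries is not in the labels. Deviations of libraries with the same number correlated at -0.24, -0.26 and -0.46 for tubules and control. They correlated at -0.36, 0.38 and 0.02 for fat body and control, and at 0.23, -0.19 and 0.04 for fat body and tubules. With so few libraries a group, these values cannot decide whether the libraries were paired. With the replicate number as a block, 11 genes were higher and 35 lower in tubules than in control, 31 and 12 in fat body than in control, and 34 and 13 in fat body than in tubules. In that fit LOC662516 and LOC103312544 (fat body over control, adjusted p = 0.0658 and 0.0571) and LOC103313839 (fat body over tubules, adjusted p = 0.0768) lost their calls. Genes of few counts, such as LOC659263, are limited by depth.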
